A study of Mus musculus with 36 samples.

Results

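The nuclear genes for the 5 complexes of mitochondrial oxidative phosphorylation were followed across 3 regions of the mouse brain, without a drug and after repeated dosing with 3 inhibitors of histone deacetylases (HDACs). Members were taken by name from the gene symbols of the array: Nduf genes of the a, b, c, s and v series (complex I), Sdha to Sdhd (complex II), Uqcr genes (complex III), Cox4 to Cox8 genes with the letter a, b or c (complex IV) and Atp5 genes (complex V). No Cox4 gene matched, so Cox4i1 was not a member. The names gave 113 of the 45281 probes on the array, for 76 gene symbols. All 36 arrays were used, from male C57BL/6J mice that the study's methods give as 11 weeks old. The mice were injected intraperitoneally once a day for 10 days with vehicle (DMSO, PEG400 and saline), with the benzamide Cpd-60 at 45 mg/kg, with the hydroxamic acid SAHA at 25 mg/kg, or with the benzamide CI-994 at 10 mg/kg. Tissue was taken 1 h after the last dose. The regions dissected were PFC (prefrontal cortex), NAc (nucleus accumbens) and HIP (hippocampus) of 6 mice per treatment. RNA was pooled from 2 mice at a time, and each pool was hybridised to 1 array, which gave 3 arrays for each treatment and region. The labels name no transgene or deletion. Cpd-60 inhibits HDAC1 and HDAC2, and the study's methods describe the vehicle, Cpd-60 and SAHA groups but not the CI-994 group. The same 3 pools of each treatment supplied all 3 regions, so p-values measure the spread between pools.

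Oxidative phosphorylation makes most of the ATP of a neuron. Complex I (NADH dehydrogenase) and complex II (succinate dehydrogenase) pass electrons to ubiquinone, complex III (cytochrome bc1) passes them on to cytochrome c, and complex IV (cytochrome c oxidase) to oxygen. The protons pumped on the way drive complex V, the ATP synthase. Most subunits are encoded in the nucleus, and a few in the mitochondrial DNA. Some members do not sit in the complex that their name gives: Ndufa4 is now placed in complex IV, the product of Ndufa12l (Ndufaf2) assembles complex I, and that of Cox7a2l joins complexes III and IV into supercomplexes. They were counted here by name.

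The values are log2 of quantile-normalized intensity, so a difference of 1 is a 2-fold change, and levels of different probes cannot be set against each other. A probe was tested where its signal was detected (detection p at most 0.2) on all 3 arrays of at least 1 group. By that filter the tests covered 92 member probes for PFC, 91 for NAc and 96 for HIP, and 77 were detected at p 0.01 on all 36 arrays. Ndufs1, both probes of Sdha and Uqcrq stayed below the filter in every region, and the array had no member probe for Atp5g1 or Cox8a. The dissections carried their regional marks: 13 of 13 striatal marker probes (among them dopamine receptors and Ppp1r1b) were higher in the NAc than in the PFC over the 4 treatments, 9 of 11 hippocampal marker probes were higher in the HIP than in the PFC, and 12 of 12 cortical marker probes were lower there. Over the 4 treatments 49.5% of all probes were called between HIP and PFC (limma, adjusted p under 0.05), and no BeadChip (the slide that carries the arrays) held both regions. The HIP also had 19 of 23 oligodendrocyte probes and 8 of 9 choroid plexus probes above the PFC, with medians of 0.80 and 0.73. The part of these cells in the differences below was not tested, and in pieces of tissue fewer cells of a type and less RNA per cell cannot be told apart.

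The promoters of 3 members are printed because results below turn on them: Ndufb10 and Atp5h, higher in the HIP than in the PFC under vehicle, and Atp5b, whose levels overlapped on all BeadChips. The 250 bases before each start site are given 5′ to 3′ on the gene's own strand, from RefSeq on GRCm38.p6. Capitals mark an ETS-type motif.
Ndufb10, chr17:24724424-24724673, minus strand: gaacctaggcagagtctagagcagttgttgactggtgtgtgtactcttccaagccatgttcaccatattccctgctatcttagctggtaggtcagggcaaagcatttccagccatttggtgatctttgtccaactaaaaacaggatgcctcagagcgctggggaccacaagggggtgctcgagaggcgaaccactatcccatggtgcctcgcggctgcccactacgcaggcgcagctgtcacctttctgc
Atp5h, chr11:115419920-115420169, minus strand: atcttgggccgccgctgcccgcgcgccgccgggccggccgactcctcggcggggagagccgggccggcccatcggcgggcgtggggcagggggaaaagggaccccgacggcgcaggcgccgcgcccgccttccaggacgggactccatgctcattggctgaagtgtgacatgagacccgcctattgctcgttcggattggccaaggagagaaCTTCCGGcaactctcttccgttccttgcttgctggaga
Atp5b, chr10:128083057-128083306, plus strand: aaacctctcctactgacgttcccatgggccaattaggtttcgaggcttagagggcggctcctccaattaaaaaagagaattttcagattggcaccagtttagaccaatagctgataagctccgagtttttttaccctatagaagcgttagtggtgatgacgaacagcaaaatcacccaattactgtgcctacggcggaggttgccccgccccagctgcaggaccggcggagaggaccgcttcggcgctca
Motifs of 3 factors known for mitochondrial genes were searched on both strands: GCATGCG (NRF1-type), CCGGAAG (ETS-type) and AAGATGG (YY1-type). The NRF1-type letters stood in 9 of 64 member promoters (14.1%, against 3.43% of 27025 promoters), the ETS-type letters in 12 (18.8%, against 7.83%) and the YY1-type letters in 2 (3.12%, against 5.18%). Of the promoters shown, Atp5h held 1 motif and the others held none of these letters.

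The arrays were not alike within the NAc. The labels put the 12 arrays of each region on 2 BeadChips of 6 arrays each. On each first BeadChip lay pools 1 and 2 of vehicle and Cpd-60 and pool 1 of SAHA and CI-994, and the other 6 pools lay on the second. No BeadChip held arrays of more than 1 region. With treatment as a term in the fit, the second BeadChip of the NAc differed from the first in 5311 of 23242 probes (22.9%, of which 11.6% higher and 11.3% lower), against 32 of 22156 in the PFC (0.144%) and 278 of 23275 in the HIP (1.19%). Among member probes, 26 were higher and 17 lower on the second NAc BeadChip, of 91 tested. In the PFC 1 was higher of 92, and in the HIP 5 were lower of 96 (limma, adjusted p under 0.05). The step that set the NAc BeadChips apart was not tested.

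Cox6c, a small subunit of complex IV, shows the size of the division. On the 6 arrays of the first NAc BeadChip its log2 level was 9.90 at the lowest, 10.10 in the middle and 10.26 at the highest, and on the second it was 11.19, 11.40 and 11.76. Vehicle, Cpd-60, SAHA and CI-994 arrays all lay on the side of their BeadChip. The first NAc BeadChip lay near the PFC, where the 2 BeadChips had medians of 9.63 and 9.97, and the second near the HIP, with medians of 11.47 and 10.93. The difference between the NAc BeadChips was 1.34 (SE 0.102, limma adjusted p = 3.63e-06).

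**Figure D1:**
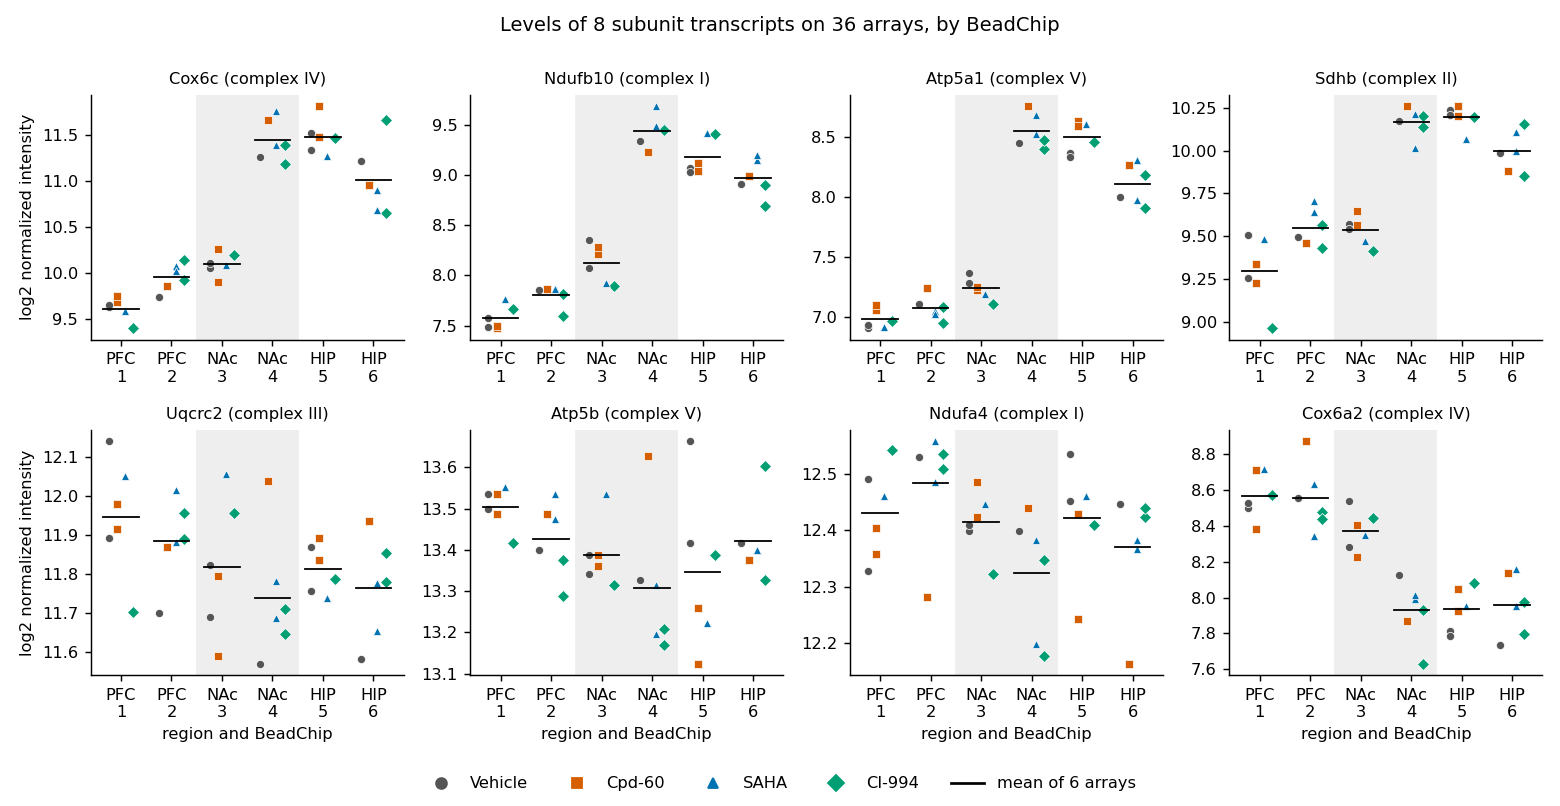
Log2 normalized intensity (y axis) of 8 member transcripts on the 36 arrays, by region and BeadChip (x axis, 6 arrays each, NAc shaded). Symbols give the treatment and the black line the mean of 6 arrays. Cox6c, Ndufb10, Atp5a1 and Sdhb are high on NAc BeadChip 4 and both HIP BeadChips, Cox6a2 is low there, and Uqcrc2, Atp5b and Ndufa4 overlap on all BeadChips. Each y axis has its own range and does not start at 0.

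Complex I had 15 probes higher and 12 lower on the second NAc BeadChip, of 47 tested. Ndufb10, an accessory subunit of the membrane arm, ran from 7.90 to 8.35 on the first and from 9.23 to 9.69 on the second, a difference of 1.33 (SE 0.104, limma adjusted p = 4.45e-06). Ndufb9 was higher by 1.17, Ndufb5 by 1.17 and Ndufa12l by 1.18. The lower ones moved less. On their brighter probes, Ndufa3 was lower by 0.39 and Ndufs6 by 0.33. Ndufv1, which binds NADH, was not called.

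In complex II, 2 of 3 tested probes were higher, both for Sdhb, the iron-sulphur subunit, and Sdhc, a membrane anchor, was not called. The brighter Sdhb probe lay between 9.41 and 9.65 on the first NAc BeadChip and between 10.02 and 10.26 on the second, a difference of 0.67 (SE 0.0485, limma adjusted p = 2.64e-06). Complex III had no higher probe and 1 lower of 5, Uqcrc1, a core subunit, by 0.17. Uqcrc2, the other core subunit, overlapped between the BeadChips, at 11.59 to 12.06 and 11.57 to 12.04.

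Complex IV had 4 probes higher and 3 lower of 15. Cox7a2 was higher by 0.81 beside Cox6c. Cox6a2, the form of subunit 6a known from heart and skeletal muscle, went the other way. It lay between 8.23 and 8.54 on the first NAc BeadChip and between 7.63 and 8.13 on the second, lower by 0.43 (SE 0.0799, limma adjusted p = 0.00254). Cox5a, a subunit of the matrix side, was not called. In complex V 5 probes were higher and 1 lower of 21. Atp5a1, the alpha subunit of the catalytic head, lay between 7.11 and 7.36 and then between 8.40 and 8.76, a difference of 1.35 (SE 0.0615, limma adjusted p = 1.03e-07). Atp5b, the catalytic beta subunit of the same head, overlapped, at 13.32 to 13.53 and 13.17 to 13.63.

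The probes called higher had mean levels from 6.74 to 12.2, with a median of 7.95. The probes called lower had a median level of 11.05 and those not called one of 10.97. Different probes of 1 gene did not always get the same call. Of the 20 member genes with several tested probes in the NAc, 4 had all of them called the same way, 8 had none called, 2 had probes called in opposite directions, and the others had some probes called and some not. For Cox5b and Cox6b1 the probe that was not called had the same sign as the one that was. The genes described here were picked after their values were seen. For Ndufs4, an accessory subunit of complex I, 3 probes were higher by 1.28, 1.29 and 1.36 on the second NAc BeadChip, while the brightest probe, ILMN_1234521, lay between 10.92 and 11.09 on the first and between 10.77 and 10.97 on the second. For Ndufs6, another accessory subunit, the probes were called in opposite directions, ILMN_1233115 being higher by 0.16 and ILMN_2842572 lower by 0.33. The deposited table gives no probe sequences, so which part of a transcript each probe reads was not examined.

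**Figure D2:**
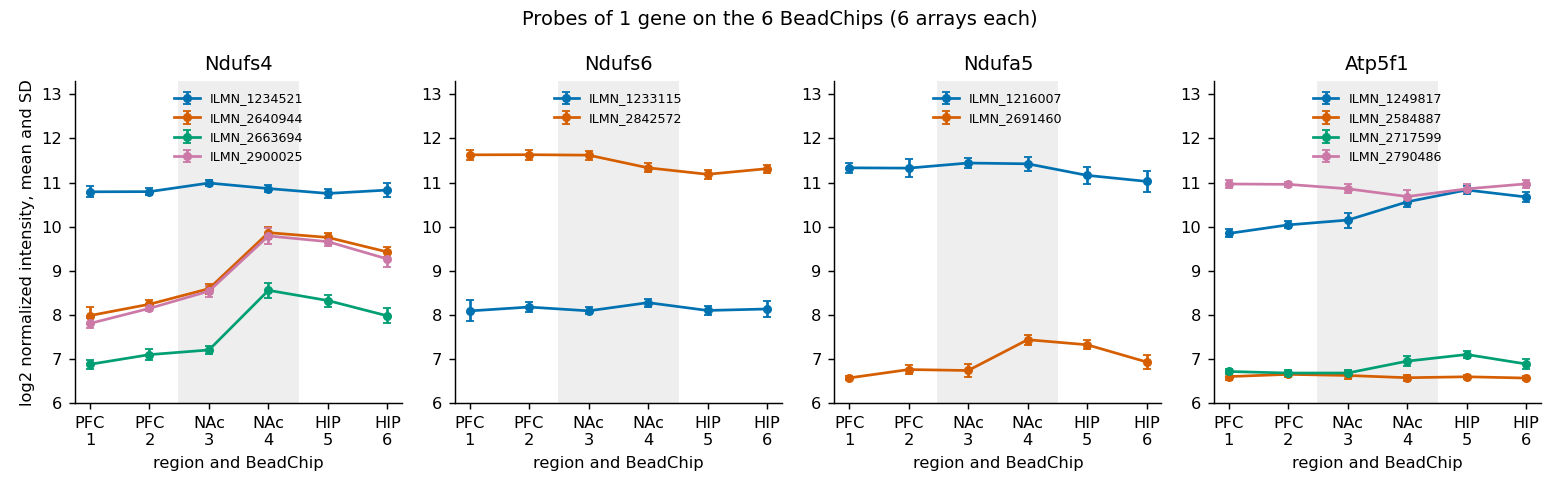
Mean and SD over 6 arrays of log2 normalized intensity (y axis, not from 0) of every probe of Ndufs4, Ndufs6, Ndufa5 and Atp5f1 on the 6 BeadChips (x axis, NAc shaded). In Ndufs4, 3 probes are higher on NAc BeadChip 4 than on 3 and the brightest overlaps, and in Ndufs6 and Ndufa5 1 of 2 probes is higher.

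Region levels under vehicle were compared on 9 arrays. The HIP had 26 member probes above and 7 below the PFC, of 95 tested, where 27.3% of all 22606 probes were called (13.4% higher and 13.9% lower). The NAc had 6 above and 1 below the PFC (20.8% of all probes called), and the HIP had 5 above and 3 below the NAc (17.9%). By complex, the HIP was above the PFC in 14 of 48 probes of complex I, 3 of 5 of complex II, 0 of 5 of complex III, 5 of 16 of complex IV and 4 of 21 of complex V, and below it in 2, 0, 1, 1 and 3. A probe could enter these counts by detection in 1 region alone, which favours a higher call there. Sdhd, not tested within the NAc, had BeadChip medians of 6.56 and 6.55 in the PFC and 7.04 and 6.89 in the HIP. The median over member probes was 0.03 for the HIP against the PFC, beside -0.03 over all probes. Without quantile normalization, with each array only centred on its median, 8 member probes were above the PFC and 0 below (8.57% of all probes called).

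With each gene given by its brightest tested probe, Cox6c, Ndufb9 and Ndufb10 had the largest differences between HIP and PFC, and all were also higher on the second NAc BeadChip. Cox6c was 9.62, 9.65 and 9.74 in the PFC and 11.53, 11.34 and 11.22 in the HIP of vehicle mice, without overlap, and 3.24-fold higher (log2 difference 1.69, SE 0.263, limma adjusted p = 0.00156). In the NAc it was 10.05 and 10.11 on the first BeadChip and 11.26 on the second, so the 3 NAc arrays spread over most of the way from PFC to HIP. Ndufb10 was 7.49, 7.58 and 7.85 in the PFC and 9.07, 9.03 and 8.92 in the HIP, a difference of 1.37 (limma adjusted p = 0.004). In the NAc it was 8.35, 8.08 and 9.34, the last on the second BeadChip, and its difference of 0.95 from the PFC was called (limma adjusted p = 0.0268). Atp5a1 was 6.90, 6.93 and 7.11 in the PFC and 8.37, 8.34 and 8.0 in the HIP, a difference of 1.25 (limma adjusted p = 0.00609).

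Atp5h, a stalk subunit of the synthase, was 9.06, 9.41 and 9.53 on the PFC arrays. It was 9.75, 9.73 and 10.46 on those of the NAc and 10.47, 10.69 and 10.43 on those of the HIP. The HIP lay 1.20 above the PFC (limma adjusted p = 0.00173) and the NAc 0.65 (limma adjusted p = 0.037), while HIP and NAc overlapped. Ndufb9 and Ndufa12l were higher in the HIP than in the PFC by 1.43 and 1.17. Ndufa1, needed to assemble complex I, was higher in the NAc than in the PFC by 0.36, and Ndufb6 was lower there by 0.41.

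Cox6a2 was the member furthest below the PFC in the HIP. PFC levels were 8.50, 8.53 and 8.55, NAc levels 8.28, 8.54 and 8.13, and HIP levels 7.81, 7.79 and 7.74. The HIP was lower than the PFC by 0.75 (limma adjusted p = 0.000458) and than the NAc by 0.54 (limma adjusted p = 0.00275). The PFC and NAc arrays overlapped. Ndufs6, Ndufa2, Atp5g2, Uqcrc1 and Atp5j2 were lower in the HIP than in the PFC by 0.42, 0.28, 0.26, 0.25 and 0.22, of which Uqcrc1 and Atp5j2 turned to 0.01 and 0.07 under median centring. Against the NAc, the HIP was higher in Cox6c (0.89), Cox8b (0.45), Cox6a1 (0.27) and Ndufa13 (0.25), and lower in Ndufa2 (0.32) and Atp5g2 (0.29). Cox8b did not pass the filter within the NAc, so its test rests on detection elsewhere. Its BeadChip medians were 6.53 and 6.58 in the NAc, near those of the undetected Sdha probes, and 7.05 and 6.71 in the HIP. Without vehicle NAc pool 3, the only vehicle array on the second NAc BeadChip, 40 member probes were called between HIP and NAc, in place of 8. The comparison with the NAc also moved with other vehicle arrays left out, down to 1 call. The shares of all probes called in these fits are not given, so these counts are no result about member probes alone.

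The same comparison was run in the mice of each drug, which share no array with the vehicle mice but lie on the same BeadChips. Of the 33 member probes called between HIP and PFC under vehicle, 22 were called the same way under Cpd-60 (16.9% of all probes called), 16 under SAHA (21.9%) and 13 under CI-994 (14.2%), and 33 had the same sign under each drug. The shares in this paragraph are of all tested probes called under the drug, whether or not called under vehicle. How often all probes called under vehicle were called again was not computed, so the shares are no measure for the repeats. The 9 called under vehicle and all 3 drugs were higher in the HIP, and included 2 probes of Ndufs4 and probes of Ndufa12l, Sdhb, Cox7a2l, Atp5a1, Atp5f1 and Atp5h. Between NAc and PFC, 3 of 7 were called the same way under Cpd-60, 4 under SAHA and 3 under CI-994 (11.2%, 15% and 17.2% of all probes called), and Cox7a2l and Atp5h in all 4 treatments. Between HIP and NAc 1 of 8 was called again under Cpd-60, 0 under SAHA and 0 under CI-994 (9.58%, 12.9% and 10.4% of all probes called), and 8, 5 and 7 of the 8 had the same sign.

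The difference between the NAc BeadChips ran alongside the difference between HIP and PFC, though they share no array. Over the 91 member probes tested in both, Pearson's r was 0.956 and Spearman's rho 0.821, and over all 23242 probes r was 0.706 and rho 0.607. These are correlations across probes, which are not independent replicates. Of the 26 member probes higher in the HIP than in the PFC under vehicle, 24 were tested in the NAc, and 24 were called higher on its second BeadChip. Of the 7 lower ones, 7 had the same sign and 3 were called. How often probes of the whole array were called the same way in both was not computed, so these counts have no measure beside them. On 18 of 98 member probes every array of the HIP and of the second NAc BeadChip lay above every array of the PFC and of the first NAc BeadChip. On 1, Cox6a2, every one lay below. Together these were 19.4% of member probes, and the same split held for 3.43% of 26594 probes.

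**Figure D3:**
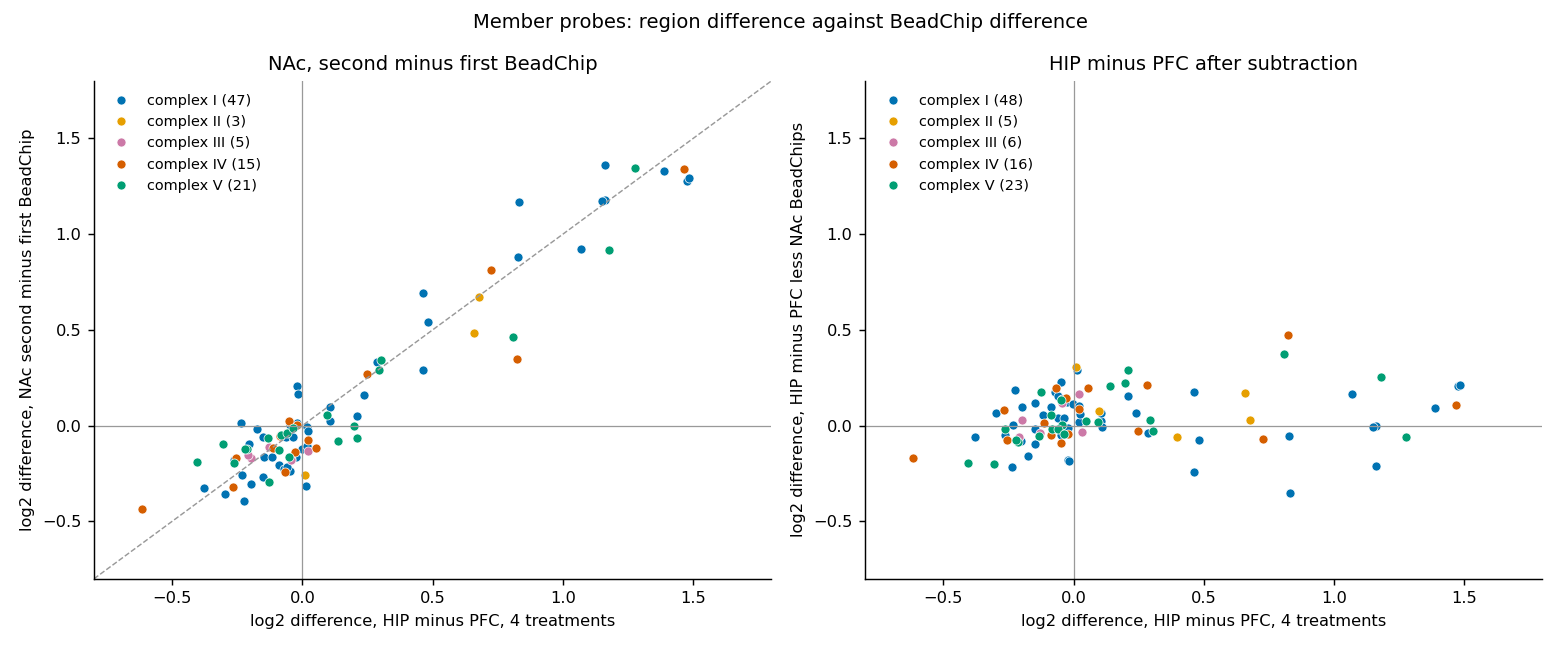
Left, log2 difference between the second and first NAc BeadChip (y axis) against that between HIP and PFC over 4 treatments (x axis) for 91 member probes, with a dashed line of equal values. Right, the HIP and PFC difference after subtracting the NAc BeadChip difference (y axis) against the same x axis for 98 member probes. Colours give the complex. The points lie along the dashed line on the left, and within -0.35 to 0.47 on the right.

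Region and BeadChip cannot be told apart between HIP and PFC, since no BeadChip held both. In a fit of all 36 arrays the HIP had 33 member probes above and 25 below the PFC, of 98 (49.5% of all probes called). With the NAc BeadChip difference subtracted, 7 were above and 2 below (15.4% of all probes called). The subtraction takes the NAc difference as a measure of the BeadChips of other regions, which was not tested. The 7 were single probes of Cox7a2l (0.47), Atp5f1 (0.38), Atp5o (0.29), Atp5h (0.25), Atp5g3 (0.21), Cox8b (0.21, low in level as above) and Cox5b (0.19). The 2 below were Ndufb5 (-0.35) and Ndufa5 (-0.24). Before the subtraction every HIP array of Ndufb5 lay above every PFC array. Its BeadChip medians were 7.13 and 7.27 in the PFC and 8.27 and 7.87 in the HIP. The share of member probes called was below that of all probes. For Cox7a2l, Atp5f1 and Atp5o a brighter probe was not called. The brightest Cox7a2l probe had BeadChip medians of 10.85 and 10.84 in the PFC and 10.87 and 10.91 in the HIP. For Atp5f1 they were 10.94 and 10.97, and 10.85 and 10.98. Cox6c, Ndufb10, Atp5a1, Sdhb and Cox6a2 were not called, at 0.11, 0.09, -0.06, 0.03 and -0.17. After the same subtraction 9 of 11 hippocampal and 19 of 23 oligodendrocyte probes were higher in the HIP, and 8 of 12 cortical probes lower.

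The 36-array fit also compared each NAc BeadChip with the other regions. The first had 21 member probes above and 6 below the PFC (30.2% of all probes called), and the second 28 above and 35 below (46.9%). Striatal markers were higher than in the PFC on both NAc BeadChips in 13 of 13 probes, with medians of 2.44 and 2.42. Cox7a2l, on the probe ILMN_1242107, was higher than in the PFC on the first NAc BeadChip by 0.58 and Cox6c by 0.31. Cox7a1, the heart and muscle form of subunit 7a, was lower by 0.27. The HIP had 12 member probes above and 12 below the second NAc BeadChip (29.2%). Cox8b was higher in the HIP by 0.30 and Ndufa10 by 0.39, while Ndufb5 and Ndufb10 were lower by 0.43 and 0.35. The Cox8b median on that NAc BeadChip was 6.58, near those of undetected probes.

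Genes around the pathway were compared between the NAc BeadChips too, where 22.9% of all probes were called. Of 8 mitochondrially encoded probes, 4 were higher on the second NAc BeadChip: mt-Atp6 by 2.02, mt-Co2 by 1.77, mt-Nd4l by 1.41 and mt-Nd1 by 0.99. The HIP was above the PFC in the same 4 by 2.14, 1.70, 0.73 and 1.06. Probes of mt-Cytb, mt-Nd4, mt-Nd5 and mt-Nd6 were not called in the NAc. Of 12 carrier and channel probes 5 were higher and 1 lower, with Slc25a3, the phosphate carrier, higher by 1.59 and 0.59 on its probes and Vdac2 by 0.98. Of 22 assembly factor probes 3 were higher and 4 lower, with Ndufaf1 higher by 0.67. In the citric acid cycle 7 were higher and 4 lower of 25, and in glycolysis 6 and 2 of 27. Cyc1, the cytochrome c1 of complex III, was lower by 0.32, and Cox4i1 was not called. Of 24 probes for regulators of mitochondrial genes 2 were higher and 3 lower, a share below that of all probes. Tfam, which packs and transcribes mitochondrial DNA, was higher by 0.27 on 1 probe, and Ppargc1a, a coactivator of mitochondrial genes, was not called.

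No member probe differed between a drug and vehicle at an adjusted p under 0.05 in any of the 9 comparisons, and no probe of the whole array did (limma, 0% called). Tukey's test after an analysis of variance, adjusted by Benjamini-Hochberg, called no member either, and 1 probe of the array, for Cpd-60 in the PFC. The smallest adjusted p of a member probe was 0.502, under SAHA in the HIP. Counts at an unadjusted p under 0.05 follow, each beside the share of all probes. Cpd-60 had 2 PFC probes higher and 1 lower of 92 (5.19%), and 0 of 91 NAc probes (4.77%). Of 96 HIP probes under Cpd-60, 2 were higher and 11 lower (5.26%, of which 2.37% higher and 2.89% lower). SAHA had 3 PFC probes higher and 1 lower (2.25%), and 0 NAc probes (2.05%). Of the HIP probes under SAHA, 4 were higher and 10 lower (9.37%, of which 4.04% higher and 5.33% lower). CI-994 had 1 PFC probe higher (3.98%), 1 NAc probe lower (1.99%), and 1 HIP probe each way (3.24%). With neqc normalization, the Cpd-60 counts in the HIP were 3 higher and 2 lower (4.79% of all probes). The SAHA counts there were 2 higher and 3 lower (9.72%). SAHA and CI-994 had 2 of their 3 NAc arrays on the second NAc BeadChip, vehicle and Cpd-60 had 1. With the BeadChip as a block, the NAc counts were 2 higher and 0 lower for Cpd-60 (8.20% of all probes), 2 and 0 for SAHA (3.09%) and 1 and 3 for CI-994 (3.47%), and no member passed the adjustment.

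**Figure D4:**
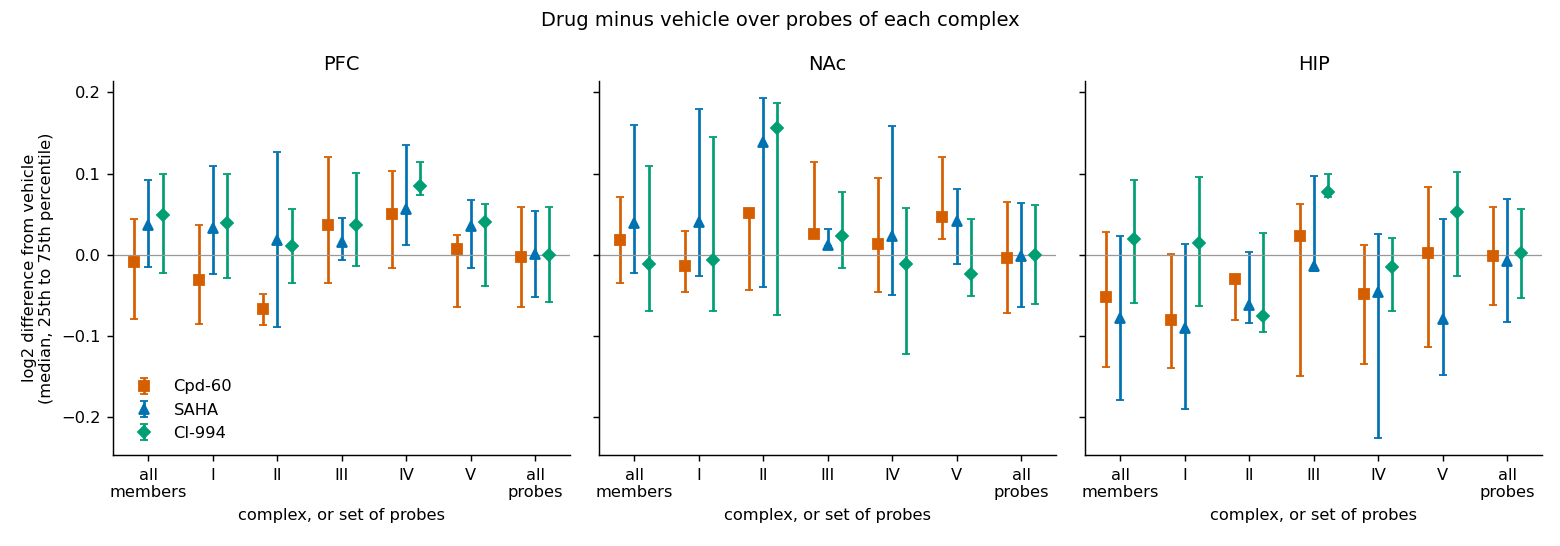
Median (symbol) and 25th to 75th percentile (bar) of the log2 difference from vehicle (y axis) over tested member probes, each complex and all probes tested (x axis), for Cpd-60, SAHA and CI-994 in the 3 regions. Bars are the spread over probes and not an error over animals. The medians of all members lie between -0.08 and 0.05.

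By complex, the HIP medians under Cpd-60 were -0.08 for complex I, -0.03 for II, 0.02 for III, -0.05 for IV and 0.00 for V. Under SAHA they were -0.09, -0.06, -0.01, -0.05 and -0.08, and under CI-994 0.01, -0.08, 0.08, -0.02 and 0.05. Cpd-60 and SAHA were set against the same vehicle arrays. PFC medians over all members were -0.01, 0.04 and 0.05 for Cpd-60, SAHA and CI-994, and NAc medians 0.02, 0.04 and -0.01. The difference of the drug effect in the HIP from its mean in the other regions was called for no member probe (0% of 19447 probes). At an unadjusted p under 0.05 it counted 3 of 88 for Cpd-60, 10 for SAHA and 0 for CI-994 (1.7%, 7.25% and 1.68% of all probes).

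The members named next had the largest differences among those with an unadjusted p under 0.05 and no overlap between the groups, and none passed the adjustment. Ndufs8, an iron-sulphur subunit of complex I, appeared for more than 1 drug. In the HIP it was 10.86, 10.80 and 10.84 under vehicle, 10.51, 10.51 and 10.56 under Cpd-60 and 10.68, 10.57 and 10.50 under SAHA. All 3 arrays of each drug lay below all 3 of vehicle, with differences of -0.30 (limma adjusted p = 0.814) and -0.25 (limma adjusted p = 0.502). Under CI-994 it was 11.00, 10.93 and 10.71, overlapping vehicle. In the PFC it was 11.03, 10.86 and 10.77 under vehicle and 10.75, 10.57 and 10.27 under Cpd-60, a difference of -0.36 (limma adjusted p = 0.791). In the NAc the arrays were 10.75, 10.68 and 10.70 under vehicle and 10.56, 10.58 and 10.63 under Cpd-60.

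Cox6a2 was 7.81, 7.79 and 7.74 in the HIP under vehicle, 8.05, 7.93 and 8.13 under Cpd-60 and 7.95, 8.16 and 7.95 under SAHA. The differences were 0.26 (limma adjusted p = 0.888) and 0.24 (limma adjusted p = 0.502), and the SAHA value turned to -0.20 under median centring. Uqcrh, the hinge protein of complex III, was 12.27, 12.14 and 12.11 under vehicle and 12.01, 11.82 and 11.88 under Cpd-60 in the HIP, a difference of -0.27 (limma adjusted p = 0.814). Atp5k, a membrane subunit of the synthase, was 6.70, 6.86 and 6.77 under vehicle and 7.01, 7.72 and 6.88 under Cpd-60. Its difference of 0.43 rests mostly on pool 2, which was also the high array for Atp5k in the PFC (7.31) and NAc (7.79) of Cpd-60 mice. Atp5b differed by -0.25 in the HIP under Cpd-60.

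In the HIP of SAHA mice, Uqcrb differed by 0.29, Ndufa10 by 0.20, Cox6a1 by -0.29 and Ndufa11 by -0.28, with adjusted p of 0.502, 0.526, 0.502 and 0.512. Under median centring Uqcrb turned to -0.04 and Ndufa10 to -0.39. In the PFC, Ndufb9 was 6.57, 6.69 and 6.69 under vehicle and 6.89, 7.00 and 6.90 under SAHA, a difference of 0.28 (limma adjusted p = 1). These levels lie near those of undetected probes. The Ndufb9 medians were 6.68 and 6.88 on the first and second PFC BeadChips, and SAHA had more of its PFC arrays on the second than vehicle had. Uqcrfs1, the Rieske iron-sulphur protein, differed by 0.20 in the PFC under Cpd-60. Its probe was not tested in the NAc and ran from 6.29 to 6.73 over the PFC arrays, near the level of undetected probes. Under CI-994 the member named by the rule was Ndufa2 in the HIP, at 10.73, 10.88 and 10.78 under vehicle and 11.09, 11.22 and 10.96 under the drug, a difference of 0.30 (limma adjusted p = 1).

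Among the HIP arrays 2 of the SAHA group were dim. The 95th percentile of raw intensity was 437.7 and 452 on SAHA HIP pools 2 and 3, and between 593.6 and 850.1 on the other 10 HIP arrays. The raw median of the 77 member probes detected on every array was 1211 and 1162 on those 2 arrays, and 1664 to 2561 on the others. After quantile normalization the median of the same probes lay between 10.76 and 11.09 on all 36 arrays. With brightness as a covariate the unadjusted SAHA count for HIP probes (p under 0.05) was 1 higher and 6 lower (3.12% of all probes). Without pools 2 and 3 it was 0 and 6 (3.94% of all probes), with 1 SAHA array left that is assumed to vary like the other groups. Under median centring, which does not even out the spread of intensities, 53 member probes were called lower under SAHA in the HIP (13.9% of all probes called), and the member median was -0.57. The part of brightness in these differences was not tested beyond these fits.

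**Figure D5:**
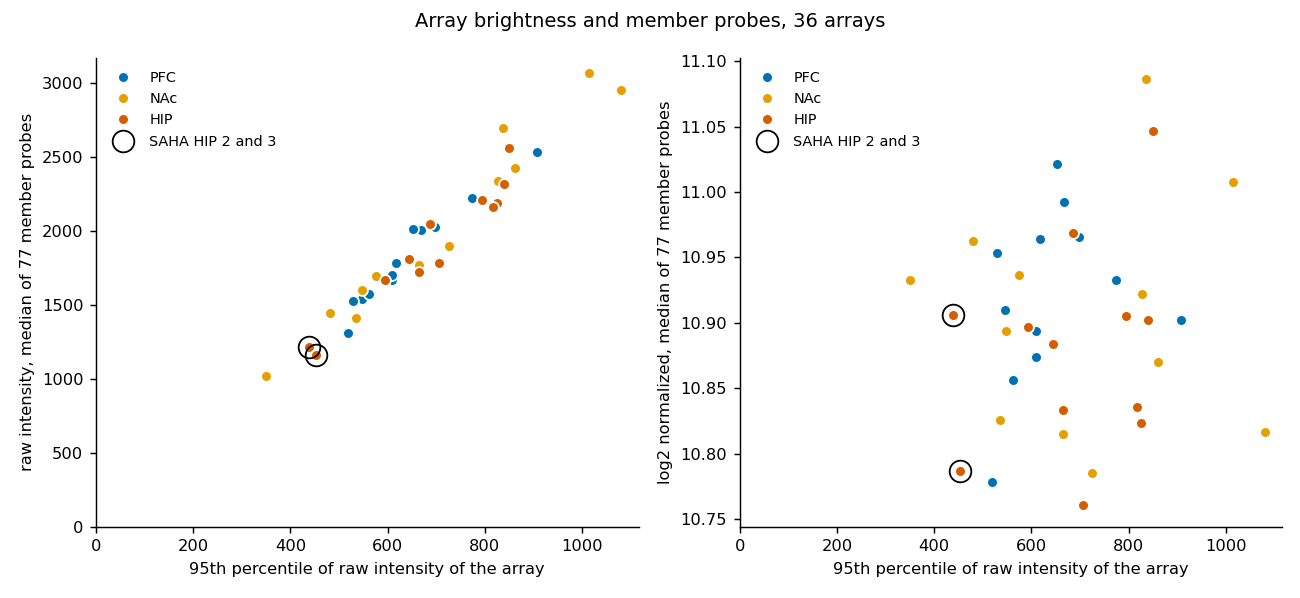
Median of 77 member probes detected on all 36 arrays (y axis) against the 95th percentile of raw intensity of the array (x axis, from 0), before (left, raw intensity, from 0) and after (right, log2, not from 0) quantile normalization. Colours give the region and circles mark SAHA HIP pools 2 and 3. Raw member intensity follows array brightness, and the normalized medians lie between 10.76 and 11.09.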

How the data were processed

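RNA of pooled mouse brain tissue was hybridised to Illumina MouseWG-6 BeadChips. The authors deposited raw bead intensity per probe and array, not normalized. The authors also deposited a detection p-value for each probe and array, from the scanner software. The study's methods name quantile normalization, analysis of variance and Tukey's test.

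Here the intensities of 36 arrays were quantile normalized, floored at 1 and put on the log2 scale (R 4.3.3, limma 3.58.1). Probes with detection p at most 0.2 in 3 of 3 arrays of a group were tested with limma, on 12 arrays per region for the drugs and on 9 vehicle arrays for the regions, with Benjamini-Hochberg adjustment over all tested probes and a threshold of 0.05. BeadChips were compared with treatment as a term. Groups and pool numbers came from the sample titles, and for Cpd-60 pool 2 the description names other mice than the title. The scripts were tested on simulated data. The number of arrays limits the precision.

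The member genes and lists were chosen with earlier results of these data known. Named were up to 6 probes each way past the threshold, or else up to 3 each way at an unadjusted p under 0.05 without overlap of the groups, the gene being given by its brightest tested probe, besides a fixed set of subunits. The values of 1 member gene are not reported here by name. Genes were matched to RefSeq for 76 of 76 symbols, 5 of them by synonym. Same-numbered pools deviated together, every correlation being over 0.1, only for Cpd-60 against vehicle in the PFC (0.174 to 0.575) and NAc (0.335 to 0.721). Of the drugs, only Cpd-60 had every pool on the same BeadChip as the same-numbered vehicle pool, so pool number and BeadChip cannot be told apart there. Region comparisons pair by animals in the labels. Alternatives were neqc, median centring, other detection limits, brightness, BeadChip and pool as terms, Tukey's test and leaving out arrays.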

Additional observations from a re-analysis of the deposited data

Results flagged for a closer look

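Atp5b differences from vehicle under Cpd-60 had opposite signs between regions, and none passed the adjustment. On the log2 scale, all 3 Cpd-60 arrays lay below the vehicle mean in the HIP (mean difference -0.2453), and all 3 lay above it in the PFC (0.0242) and in the NAc (0.1061). Atp5b was picked for these signs, from genes already named for a drug difference, so the signs are no support for it. PFC arrays of all treatments ran from 13.29 to 13.55. The pairwise difference between regions was not tested. The HIP effect less the mean effect of the other regions was -0.31 (SE 0.108, limma adjusted p = 1).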

How the results depend on the processing

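Of the counts and medians that answer a comparison, 386 values under alternatives stayed close to the main value and 89 moved. The other values were counts at an unadjusted p under 0.05, region comparisons within each drug, and single genes. Of these, 817 stayed and 193 moved, the moved ones all being counts or medians. Among single genes, 110 values lost and 3 gained their call, and 5 reversed. The cause of these changes was not tested. Counts of calls in the paragraphs below stand without the share of all probes called under the same setting. They are no result about member probes alone.

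Under median centring the median of all probes was -0.189 for SAHA in the HIP, against -0.00811 in the main fit. Under it the member medians against vehicle were 0.025 (Cpd-60, PFC), 0.164 (SAHA, PFC), 0.205 (SAHA, NAc), 0.158 (CI-994, NAc), -0.121 (Cpd-60, HIP) and -0.574 (SAHA, HIP, with 53 calls). The HIP less the other regions gave -0.176, -0.779 and -0.0851 for Cpd-60, SAHA and CI-994. Vehicle regions had 0 calls (NAc against PFC), 8 with a median of 0.233 (HIP against PFC) and 0 with 0.287 (HIP against NAc). BeadChips had 0 calls and 0.0654 (PFC), 18 and 0.129 (NAc), and 1 and -0.159 (HIP). The first NAc BeadChip against PFC had 3, HIP against the second 11 and -0.119, and the subtracted difference 1 and -0.136. Calls shared by all 4 treatments were 0 for NAc against PFC and 0 for HIP against PFC. Reversed were Uqcrb (-0.0363), Cox6a2 (-0.199) and Ndufa10 (-0.390) under SAHA in the HIP, and Uqcrc1 (0.00844) and Atp5j2 (0.0651) between HIP and PFC.

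Under neqc, HIP against NAc had a median of 0.107, BeadChips 0 (PFC) and 3 (HIP) calls, the subtracted difference 5, and calls shared by 4 treatments were 4 (NAc against PFC) and 14 (HIP against PFC). With brightness as a term, SAHA in the PFC was 0.00774, NAc against PFC had 26 calls, the PFC BeadChips 0, and 2 calls were shared between HIP and PFC. At detection p 0.01, NAc against PFC was 0.0188 and HIP against NAc had 14 calls. Without a detection filter, the medians were -0.0499 (SAHA, HIP), 0.0188 (NAc against PFC) and 0.0468 (HIP against NAc), and 1 call was shared between NAc and PFC. With the BeadChip as a block SAHA in the HIP was -0.0289, and as a random block HIP against NAc had 1 call and 1 was shared between NAc and PFC. Without SAHA HIP pools 2 and 3, which leaves 1 array, the SAHA median was -0.0355. With NAc arrays of the first BeadChip alone, NAc against PFC was 0.0213 and HIP against NAc had 40 calls. With the second alone, which leaves 1 vehicle NAc array assumed to vary like the other groups, they had 32 and 4 calls and HIP against NAc was 0.0616. Cpd-60 in the NAc was then 0.0570, from 1 array against 1.

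With the replicate block 0 member probes were called in any drug comparison. With the pool of animals as replicate block, vehicle regions had 8 (NAc against PFC), 33 (HIP against PFC) and 6 (HIP against NAc) calls, and the calls shared by all 4 treatments were 1 (NAc against PFC) and 5 (HIP against PFC).

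Leaving out each array in turn gave medians of -0.0266 to 0.0179 (Cpd-60, PFC), 0.0172 to 0.0464 (SAHA, PFC), 0.0218 to 0.0733 (CI-994, PFC), -0.00378 to 0.0457 (Cpd-60, NAc), 0.000943 to 0.0901 (SAHA, NAc), -0.0548 to 0.0176 (CI-994, NAc), -0.0942 to -0.0073 (Cpd-60, HIP), -0.0991 to -0.0382 (SAHA, HIP) and 0.000518 to 0.0567 (CI-994, HIP). For vehicle regions they were -0.0107 to 0.0213 with 2 to 14 calls (NAc against PFC), 0.00663 to 0.0475 (HIP against PFC) and 0.0632 to 0.101 with 1 to 40 calls (HIP against NAc). NAc against PFC had 3, 2 and 14 calls without vehicle PFC pool 1, 2 and 3, and 12 without NAc pool 1. HIP against NAc had 3, 1 and 40 without NAc pool 1, 2 and 3, and 2, 3 and 4 without HIP pool 1, 2 and 3.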
